A study of Homo sapiens with 24 samples.

Results

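The protocadherins (PCDH) are the largest family of cadherin-like adhesion molecules, and most of their human genes lie side by side on chromosome 5. Members were taken as every row whose gene name starts with PCDH in the 4 deposited RNA sequencing tables, which gave 63 of the 16742 genes listed in at least 1 table. Of these, 55 belong to the 3 clusters on chromosome 5, namely 14 to the alpha cluster, 18 to the beta cluster and 23 to the gamma cluster. The other 8 are non-clustered: PCDH1 and PCDH12 lie on chromosome 5 outside the clusters, and PCDH7, PCDH9, PCDH10, PCDH11Y, PCDH18 and PCDH19 lie on other chromosomes. PCDH11Y is Y-linked and its level is not given here, so 62 members are described by their level.

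The tables come from 24 libraries of total RNA, 3 for each of 8 lines derived from HCT116, a near-diploid human colon carcinoma line, or from RPE1, human retinal pigmented epithelium immortalized with hTERT. Chromosome 5 was gained in HCT116 5/4, with 4 copies, and in RPE1 5/3 12/3, with 3 copies of chromosomes 5 and 12. HCT116* 8/3 c7 had 3 copies of chromosome 8 and RPE1* 21/3 had 3 copies of chromosome 21, both with 2 copies of chromosome 5, where the asterisk marks stable expression of histone H2B tagged with GFP. The controls were the parental lines HCT116, HCT116*, RPE1 and RPE1*, with 2 copies of chromosome 5 each. Extra chromosomes were transferred in microcells, c7 is a single clone, and chromosome 12 was gained spontaneously in RPE1 5/3 12/3. The HCT116 stock behind HCT116 5/4 and the stock behind HCT116* came from different sources.

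Each table holds, for every gene, the mean of the normalised read count over the 6 libraries of an aneuploid line and its parental line, and no value of a single library. These pooled means are called here the HCT116 pool (HCT116 with HCT116 5/4), the HCT116* pool (HCT116* with HCT116* 8/3 c7), the RPE1 pool (RPE1 with RPE1 5/3 12/3) and the RPE1* pool (RPE1* with RPE1* 21/3). Every comparison below is therefore 1 value against 1 value, without replicates, SD or test, and is a description of these pools. The pools with the chromosome 5 gain hold on average 3 copies (HCT116) and 2.5 copies (RPE1) of chromosome 5, against 2 in the pools without it. A difference between pools mixes the gained chromosome, the parental stock and the H2B-GFP transgene, and these cannot be told apart. The tables list 14292 to 15610 genes with a lowest mean between 1.98 and 3.36, and their summed means are between 18889300 and 23011800. A gene that a table does not list is called not listed, which is no measured 0.

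Clustered protocadherins are known as surface labels by which neurons tell their own branches from those of others. Each alpha and gamma gene has its own promoter and variable first exon, which is spliced to constant exons shared by the whole cluster, whereas each beta gene is a single exon. Which promoters a neuron uses is set by DNA methylation and by CTCF and cohesin, which loop a distant enhancer to the promoter chosen. The genes AC1, AC2, C3, C4 and C5 at the far ends of the alpha and gamma clusters are called C-type and are used more evenly between neurons. The non-clustered members, such as PCDH1, PCDH7 and PCDH10, each have an own locus and longer cytoplasmic tails, and act in adhesion and cell sorting of epithelia and of the developing brain.

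On hg19 (GRCh37), the listed alpha genes span chr5:140165721-140391932, the beta genes chr5:140474191-140628933 and the gamma genes chr5:140710081-140892544, all on the + strand. In the annotation, each of the 14 alpha genes shares exon bases with the 13 others, and 22 of 23 gamma genes share them with 21 others. The median gene of the alpha cluster shares 46.6% of its exon bases, and that of the gamma cluster 43.8%. No beta gene shares exon bases with another member, and 14 of 18 share none with any protein-coding gene either. Overlaps with other kinds of gene were not looked for, so no overlap below means none with protein-coding genes or members. Reads in the constant exons cannot be given to one alpha or gamma gene, and the counting step stated by the study names no option for reads that overlap several genes. Close copies add to this: of all stretches of 100 bases in the unshared exons of PCDHB8, 25.5% are also in another member, and the share is 22.3% for PCDHA7, 17.5% for PCDHB10 and 16.7% for PCDHGB4. For PCDHGA11, PCDHGC3, PCDHAC1, PCDHAC2 and the non-clustered members no such stretch was found.

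Promoters of clustered protocadherins carry a conserved element with the core CGCT, and it was searched for to show what the members share beyond their names. RefSeq promoter sequences (GRCh38.p14) were found for 53 members, 46 of them clustered. On the gene's strand, CGCT lay within the last 100 bases before the start site in 43 of 46 clustered genes (93.5%), in 2 of 7 non-clustered genes and in 27.5% of all 27305 promoters. On the other strand it lay in 26.1% of clustered and 27.7% of all promoters. The first CGCT in this stretch is called here the box, and it began between 11 and 95 bases before the start, with a median of 58. Some promoters, among them those of PCDHAC1 and PCDHAC2, held more than 1 CGCT there. Whether a box belongs to the conserved element was not checked gene by gene. AGGGGGC, letters from the CTCF motif searched on both strands of the 250 bases before the start, was in 0 of 46 clustered promoters and in 12.9% of all promoters. Only exact matches to these letters were counted, so nothing is read from this about CTCF sites with other letters. The box with 20 bases on each side is shown for PCDHA12, the alpha gene furthest apart between the RPE1 pools, for PCDHAC1 and PCDHAC2, which led the alpha cluster in the HCT116 pools, and for the 3 beta genes past 2-fold between the HCT116 pools, with CGCT in capitals and coordinates on GRCh38.p14:
PCDHA12, chr5:140875240-140875283, + strand: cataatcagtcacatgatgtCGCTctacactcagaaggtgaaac
PCDHAC1, chr5:140926216-140926259, + strand: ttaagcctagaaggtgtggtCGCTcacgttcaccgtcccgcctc
PCDHAC2, chr5:140966361-140966404, + strand: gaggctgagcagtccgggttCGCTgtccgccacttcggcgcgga
PCDHB9, chr5:141187070-141187113, + strand: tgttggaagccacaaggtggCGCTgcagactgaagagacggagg
PCDHB13, chr5:141213861-141213904, + strand: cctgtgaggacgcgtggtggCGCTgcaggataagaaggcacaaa
PCDHB14, chr5:141223259-141223302, + strand: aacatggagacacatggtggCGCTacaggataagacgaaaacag

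The 5 bases before the box differ between the clusters. The most frequent form in the alpha cluster, GATGTCGCT on the gene's strand, was in 9 of 13 alpha promoters and in 0 of 13 beta and 0 of 20 gamma promoters, beside 0.0403% of all promoters. The most frequent form in the beta cluster, GGTGGCGCT, was in 12 of 13 beta promoters and in 0 of the other clusters' promoters, beside 0.161% of all. In the gamma cluster the most frequent form, GGCGCCGCT, was in 6 of 20 promoters, beside 0.238% of all. These forms were chosen from the promoters they are counted in, and all overlap the core. In the gamma cluster, PCDHGA10 is shown because it was above in the HCT116 pools among the clustered genes listed in all 4 tables, PCDHGA11 and PCDHGC3 because they led in the RPE1 pools, and PCDHGB4 and PCDHGB5 as a near-identical pair (same build and capitals):
PCDHGB4, chr5:141387613-141387656, + strand: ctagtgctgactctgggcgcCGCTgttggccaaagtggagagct
PCDHGB5, chr5:141397859-141397902, + strand: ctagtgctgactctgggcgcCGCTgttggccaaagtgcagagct
PCDHGA10, chr5:141412927-141412970, + strand: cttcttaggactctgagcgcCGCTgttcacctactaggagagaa
PCDHGA11, chr5:141420968-141421011, + strand: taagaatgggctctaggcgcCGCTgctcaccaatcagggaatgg
PCDHGC3, chr5:141475876-141475919, + strand: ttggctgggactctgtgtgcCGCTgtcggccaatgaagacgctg

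Counted from the first base printed, the windows of PCDHGB4 and PCDHGB5 differ at 1 of 44 bases, G38C, with the base of PCDHGB4 first. The windows of PCDHGA11 and PCDHGA10 differ at 19 of 44 bases.

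Over the genes that each table lists, the clustered genes had a higher summed mean in the RPE1 pools than in the HCT116 pools. In these bulk samples, fewer cells that express a gene and less RNA per cell cannot be told apart. Of the 55, the HCT116 pool listed 25 and the HCT116* pool 20, against 46 in the RPE1 pool and 50 in the RPE1* pool. A mean of at least 10 was reached by 11, 6, 37 and 39 of them in the same order. Of all 16742 genes listed in at least 1 table, these pools listed 15148, 15610, 14510 and 14292. A mean of at least 10 was reached by 13887, 13869, 13278 and 13101 of all genes. Over all genes, both counts were thus slightly higher in the HCT116 pools than in the RPE1 pools. The summed mean of the 3 clusters was 1592 in the HCT116 pool, 589 in the HCT116* pool, 11582 in the RPE1 pool and 7304 in the RPE1* pool. These sums were 0.00826%, 0.00294%, 0.0503% and 0.0387% of the sum of all means in the table. PCDHGC3 made up 34.6% of the sum in the HCT116 pool and was not listed in the HCT116* pool, so the sums do not cover the same genes. Of the 62 members, 12 stayed below a mean of 10 in every table, with values between 3.49 and 9.33, and 8 of these 12 are alpha genes.

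**Figure D1:**
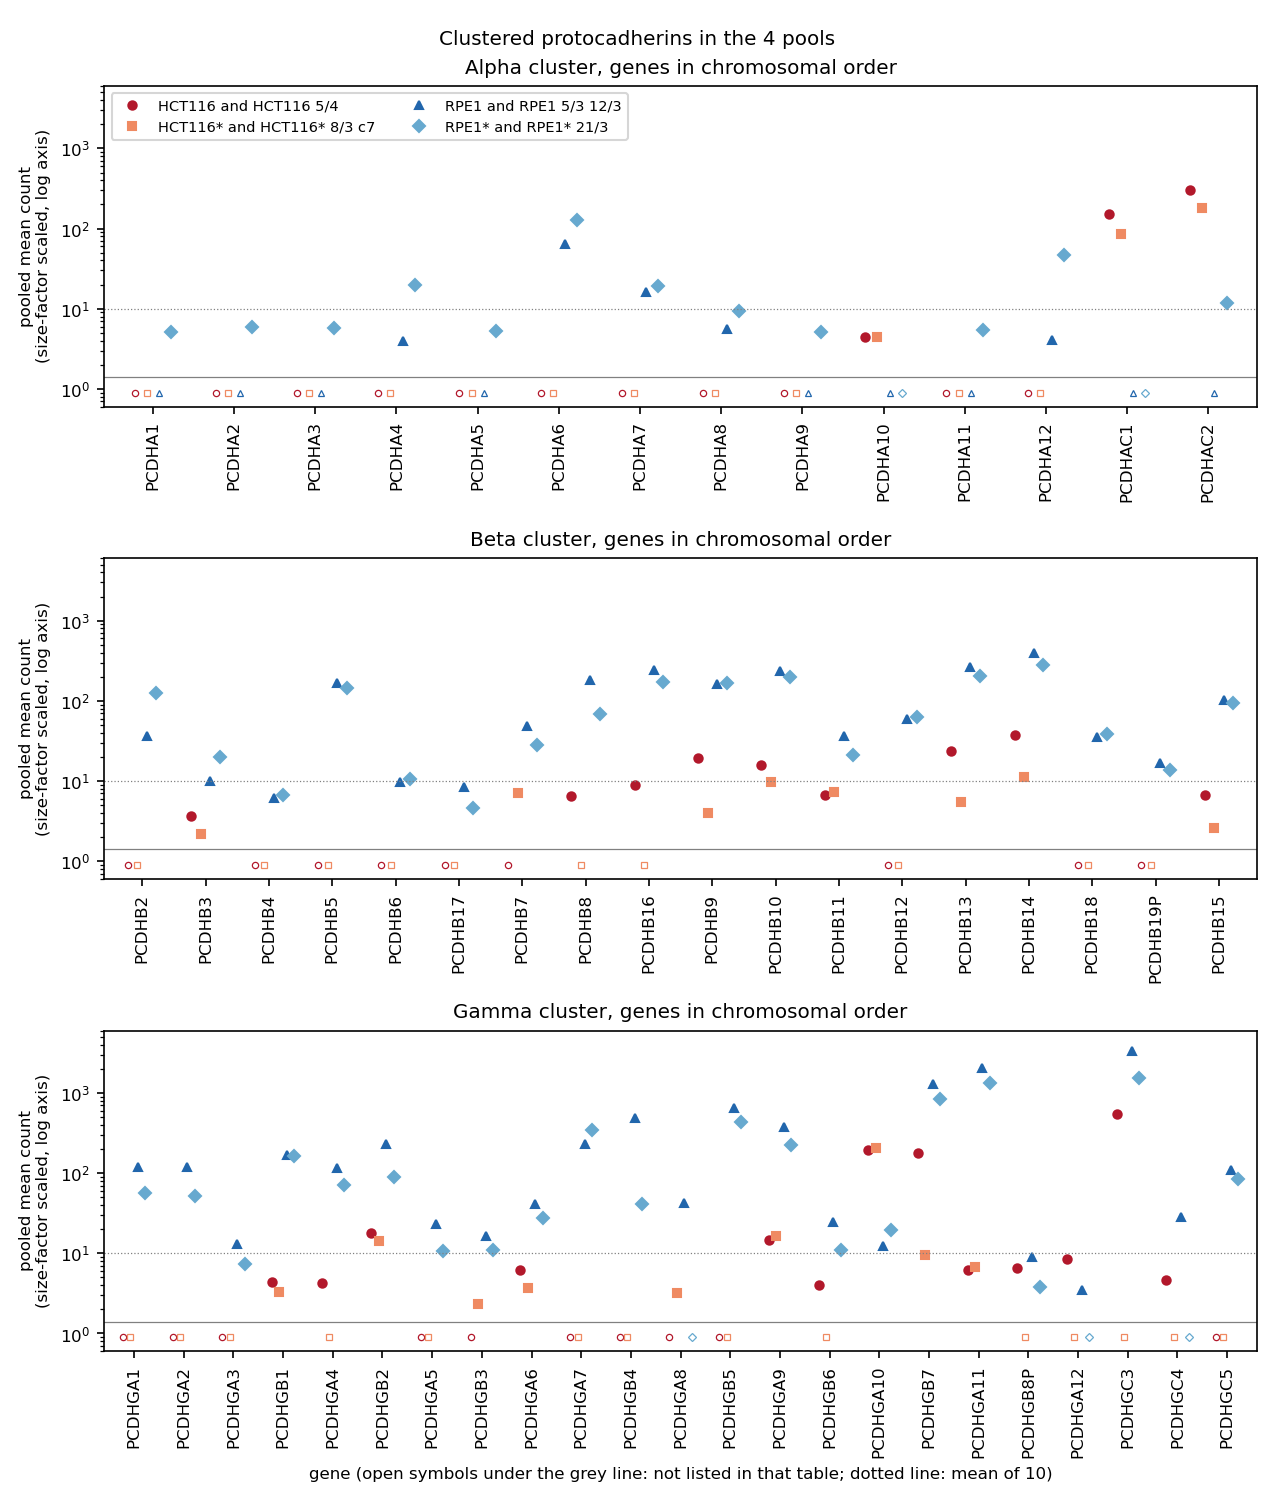
Pooled mean of the normalised read count (log axis) for the 55 clustered genes in chromosomal order, 1 point per table, with open symbols below the grey line for genes that a table does not list and a dotted line at a mean of 10. In the HCT116 pools filled points above 100 are few (PCDHAC1, PCDHAC2, PCDHGA10, PCDHGB7, PCDHGC3), whereas in the RPE1 pools many beta and gamma genes are above that level.

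In the alpha cluster, the genes listed with the highest means differed between the 2 parental backgrounds. PCDHAC2, a C-type gene, had a mean of 306 in the HCT116 pool and 181 in the HCT116* pool, was not listed in the RPE1 pool and reached 11.7 in the RPE1* pool. PCDHAC1, its C-type neighbour, was at 151 and 85.4 in the HCT116 pools and was not listed in either RPE1 pool. Among the values listed, both C-type genes were thus high only in the colon carcinoma pools. Their missing rows in the RPE1 pools are not read as low levels. PCDHA6 was at 64.5 in the RPE1 pool and 129 in the RPE1* pool and was listed in neither HCT116 pool. PCDHA12 was at 4.04 in the RPE1 pool and 46.2 in the RPE1* pool, PCDHA4 at 3.99 and 19.97, and PCDHA7 at 16.3 and 19.1, and none of these was listed in an HCT116 pool. The highest alpha means listed in the RPE1 pools were thus those of variable genes. All but PCDHA6 in the RPE1* pool were below the C-type genes in the HCT116 pools. PCDHA10 was the only variable alpha gene listed in the HCT116 pools, at 4.42 and 4.41.

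All 18 listed beta genes had a row in both RPE1 pools, and 9 and 8 of them in the HCT116 and HCT116* pools. PCDHB14 had the highest beta mean in every pool, at 37.9 in the HCT116 pool, 11.4 in the HCT116* pool, 391 in the RPE1 pool and 279 in the RPE1* pool. PCDHB13 followed in the RPE1 pools with 262 and 204, and was at 23.4 and 5.52 in the HCT116 pools. PCDHB10 was at 15.7 and 9.68 in the HCT116 pools and at 237 and 199 in the RPE1 pools. Each of these 3 genes was thus lowest in the HCT116* pool and at least several-fold higher in both RPE1 pools than in either HCT116 pool. PCDHB5, at 167 and 143, and PCDHB2, at 36.4 and 124, were listed in the RPE1 pools alone. The annotated pseudogenes PCDHB17 and PCDHB19P were at 8.54 and 16.7 in the RPE1 pool, and PCDHB18, annotated as a long noncoding RNA, was at 35.2.

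The gamma cluster held most of the clustered signal in the RPE1 pools, 81.8% of the summed mean in the RPE1 pool and 73.6% in the RPE1* pool. It also held 62.9% in the HCT116 pool, and 45.5% in the HCT116* pool beside 46.0% for the alpha cluster. PCDHGC3, a C-type gene, led with 3322 in the RPE1 pool and 1553 in the RPE1* pool, was at 550 in the HCT116 pool and was not listed in the HCT116* pool. PCDHGA11 was at 2030 and 1321 in the RPE1 pools and at 6.21 and 6.74 in the HCT116 pools. PCDHGB7 was at 1309 and 849 in the RPE1 pools, 178 in the HCT116 pool and 9.65 in the HCT116* pool. These 3 genes made up 70.3% of the gamma sum in the RPE1 pool and 69.2% in the RPE1* pool. PCDHGB5 was at 647 and 436 in the RPE1 pools and was not listed in the HCT116 pools. PCDHGA10 had the opposite order, with 196 and 209 in the HCT116 pools and 12.5 and 19.3 in the RPE1 pools. It lies between PCDHGB6 and PCDHGB7, with PCDHGA11 as the next gene after PCDHGB7.

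Compared per kilobase of exon, which allows genes of different length to be ordered, PCDHGC3 led in the RPE1 pools with 612 in the RPE1 pool and 286 in the RPE1* pool. PCDHGA11 followed with 349 and 227. PCDHGB7 stood at 264 and 171 and the non-clustered PCDH10 at 169 and 186. On this length, over all exons, these genes thus changed places between the RPE1 pools. In the HCT116 pool the order of levels per kilobase was PCDH1 (405), PCDH7 (179), PCDHGC3 (101) and PCDHAC2 (49.7). In the HCT116* pool it was PCDH7 (254), PCDH1 (244), PCDHGA10 (31.4) and PCDHAC2 (29.4). PCDH1 and PCDH7 thus stood above every clustered gene in both HCT116 pools, and PCDHGC3 and PCDHGA11 above every non-clustered gene given here in both RPE1 pools. Without replicates it cannot be said which neighbours in these orders differ beyond their spread. Over unshared exon bases alone, PCDHGC3 in the RPE1 pool was at 1021 per kilobase. On that length PCDHAC2 (55.1) stood above PCDHGA10 (46.7) in the HCT116* pool, which turns their order, and PCDHAC2 was at 92.9 in the HCT116 pool. PCDHGB7 and PCDH10 did not change places over unshared bases. PCDHGB7 was above in both, with 470 against 169 in the RPE1 pool and 305 against 186 in the RPE1* pool.

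Across the clustered genes listed in both tables of a parental background, the log2 means ran together, with Pearson's r = 0.89 and Spearman's rho = 0.88 over 43 genes for the RPE1 and RPE1* pools. For the HCT116 and HCT116* pools they were 0.85 and 0.77 over 17 genes. Between the HCT116 and RPE1 pools r was 0.45 and rho 0.51 over 22 genes, and between the HCT116* and RPE1* pools r was -0.19 and rho 0.13 over 17 genes. The points are genes that share constant exons, sequence and gene length across the tables, and they are not independent.

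The pools were then set against each other within a parental background, as log2 ratios centred so that the median of all genes compared is 0. Genes were compared where both tables list them and the average of the 2 means was at least 10. For the HCT116 pool over the HCT116* pool, 10 of the 17 clustered genes listed in both passed this filter. Their median log2 ratio was 0.86, with 8 above 0 and 2 below, beside 0.46 for 566 other chromosome 5 genes and -0.01 for 12697 genes on other chromosomes. Means of 3 against 2 copies of chromosome 5 correspond to 0.58. Over 66 other genes within 5 Mb of the clusters the median was 0.34. Past 2-fold, 4 of 10 clustered genes were higher and 0 were lower, beside 3.75% of all 13863 genes higher and 1.93% lower, and 16.4% of other chromosome 5 genes higher. With 10 genes, some of which passed the filter through the pool where they were high, nothing is read from this share about the clusters as a whole. Only 3 of the 10 have exons that overlap those of no other protein-coding gene or member, and their median log2 ratio was 2.15.

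The genes past 2-fold were PCDHGB7 and 3 beta genes. PCDHGB7, with 178 against 9.65, was 19.3-fold higher in the HCT116 pool (log2 4.27). PCDHB9, with 19.3 against 3.98, was 5.08-fold higher, and PCDHB13, with 23.4 against 5.52, was 4.44-fold higher. PCDHB14, with 37.9 against 11.4, was 3.49-fold higher, while PCDHB10 was 1.71-fold higher. The beta genes thus stood at low means, under 40 in either pool. The C-type genes PCDHAC1 and PCDHAC2 were 1.85-fold and 1.77-fold higher in the HCT116 pool. PCDHGA10 and PCDHGA9 hardly differed, with log2 ratios of -0.02 and -0.07, and PCDHGB2 was at 0.40. The ratios of single clustered genes thus ranged from -0.07 to 4.27. The 7 clustered genes listed in both tables but below the filter lay between -0.05 for PCDHGA11 and 1.43 for PCDHB15. PCDHGC3, at 550 in the HCT116 pool and not listed in the HCT116* pool, has no ratio. Of 9617 genes whose mean was 100 or more in the 3 other tables, 9 (0.0936%) are not listed in the HCT116* pool.

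**Figure D2:**
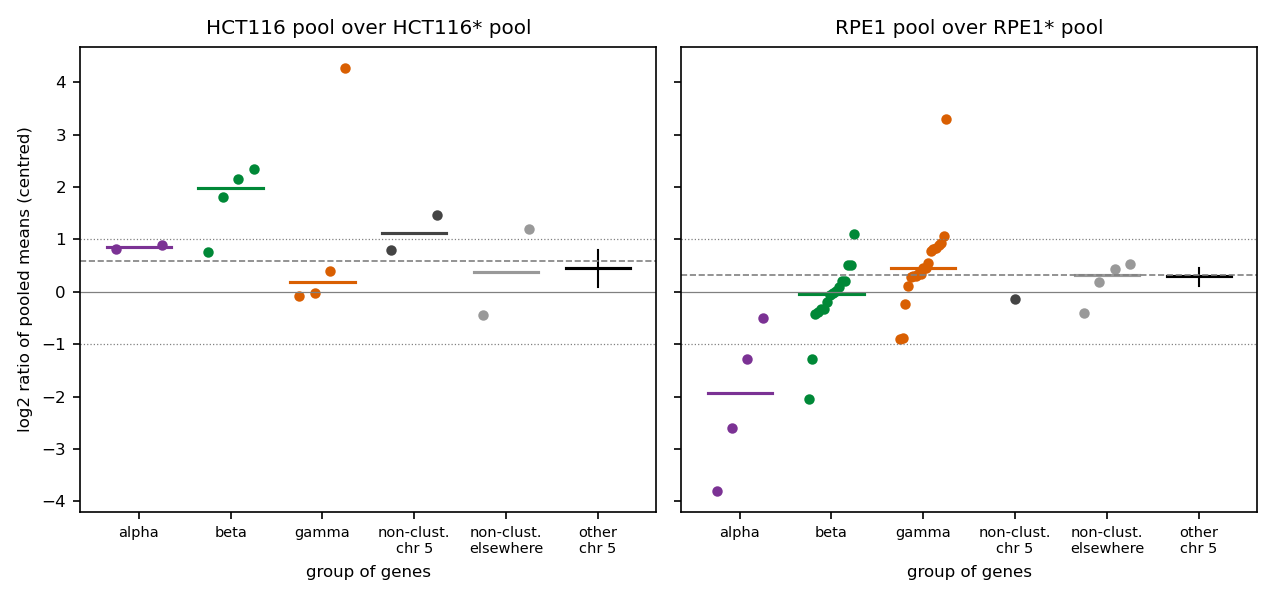
Log2 ratio of the pooled means of the tables with and without a chromosome 5 gain, centred on all genes, with 1 point per member past the filter and a bar at each group's median. For the other chromosome 5 genes the bar is the median and the vertical line the interquartile range. The dashed line is the ratio of mean chromosome 5 copies and the dotted lines mark 2-fold. PCDHGB7 stands apart at 4.27 on the left, PCDHGB4 at 3.30 on the right, and the 4 alpha genes on the right all lie below 0.

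For the RPE1 pool over the RPE1* pool, 39 of the 43 clustered genes listed in both passed the filter, with a median log2 ratio of 0.21, 23 above 0 and 16 below. The median was 0.30 for 567 other chromosome 5 genes, 0.26 for 69 other genes within 5 Mb of the clusters, and -0.01 for genes on other chromosomes. Means of 2.5 against 2 copies correspond to 0.32. The median was 0.45 over 19 gamma genes, -0.04 over 16 beta genes and -1.94 over 4 alpha genes. PCDHA12 and PCDHA4, 2 of these 4 alpha genes, passed the filter through the RPE1* pool where they were high, and with no filter the median of 5 alpha genes was -1.28, so nothing is read from the alpha median about the cluster. Past 2-fold, 3 of 39 clustered genes were higher and 5 lower, beside 1.93% of all 13200 genes higher and 2.07% lower. Of the other chromosome 5 genes 5.996% were higher and 1.23% lower. Over the 12 clustered genes whose exons overlap those of no other protein-coding gene or member, all in the beta cluster, the median log2 ratio was -0.0017.

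PCDHGB4 was the gene with the largest ratio, at 491 in the RPE1 pool and 41.2 in the RPE1* pool, or 9.85-fold higher. Its close copy PCDHGB5 was at 647 and 436, or 1.23-fold higher, although the promoter windows printed above differ at 1 base. PCDHGB4 shares 2266 exon bases beyond the constant exons with the next gene, PCDHGA8, which was at 42.6 in the RPE1 pool and not listed in the RPE1* pool. PCDHB8 and PCDHGB2 were 2.15-fold and 2.10-fold higher in the RPE1 pool.

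The 5 clustered genes past 2-fold higher in the RPE1* pool were 3 alpha and 2 beta genes. PCDHA12 was 13.8-fold higher there, PCDHA4 6.06-fold, PCDHB2 4.11-fold, and PCDHA6 and PCDHB3 each 2.42-fold. In the RPE1* pool chromosome 5 had 2 copies in all 6 libraries, and the part of copy number in these ratios was not tested. PCDHA12, PCDHA4 and PCDHB3 are at low means, with 46.2, 19.97 and 19.9 in the RPE1* pool. In the RPE1 pool they were at 4.04, 3.99 and 9.94, so they passed the filter through the RPE1* pool where they were high. PCDHA7 was at -0.51 on the log2 scale, and PCDHGA7 and PCDHGA10 were at -0.88 and -0.90. The 4 clustered genes listed in both tables but below the filter were PCDHA8 (-1.01), PCDHB4 (-0.40), PCDHB17 (0.60) and PCDHGB8P (0.97).

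Side by side, the 4 clustered genes that were past 2-fold in the HCT116 contrast were within 1.5-fold in the RPE1 contrast: PCDHGB7 at 0.35, PCDHB9 at -0.32, PCDHB13 at 0.09 and PCDHB14 at 0.21. PCDHGB4, PCDHA12, PCDHA4 and PCDHB2 have no ratio in the HCT116 contrast because neither HCT116 pool lists them, and the same holds for PCDHA6. PCDHGB2 was at 1.07 in the RPE1 contrast and 0.40 in the HCT116 contrast. PCDHB3 was at -1.28 in the RPE1 contrast and at 0.82 in the HCT116 contrast, there below the filter. PCDHB8, at 1.101 in the RPE1 contrast, was not listed in the HCT116* pool. The difference between the contrasts was not tested.

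The non-clustered genes gave the comparison with members outside the clusters. PCDH1, an adhesion molecule of airway and other epithelia, lies on chromosome 5 just beyond the gamma cluster. It was at 2397 in the HCT116 pool, 1443 in the HCT116* pool, 420 in the RPE1 pool and 380 in the RPE1* pool. Its log2 ratio was 0.80 in the HCT116 contrast and -0.13 in the RPE1 contrast. PCDH12, known from endothelium and also on chromosome 5, was at 40.1 and 15.2 in the HCT116 pools, with a log2 ratio of 1.46. It was at 4.52 in the RPE1 pool and not listed in the RPE1* pool.

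PCDH7, on chromosome 4, was the only one of the others with high means in all 4 tables, at 2309, 3271, 1507 and 1089. Its log2 ratios were -0.44 in the HCT116 contrast and 0.19 in the RPE1 contrast. PCDH10, a delta-type protocadherin known as a tumour suppressor candidate, was at 1721 and 1891 in the RPE1 pools. PCDH18 was at 499 and 304 and PCDH9 at 139 and 79.9 in the same pools, and none of these 3 genes was listed in an HCT116 pool. PCDH19, on the X chromosome and known from an epilepsy syndrome, was at 44.1 and 20.001 in the HCT116 pools, with a log2 ratio of 1.21, and was not listed in the RPE1 pools. Off chromosome 5 there were thus 2 genes with a ratio in the HCT116 contrast, on opposite sides of 0, and 4 in the RPE1 contrast with a median of 0.32, 1 of them below 0.

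**Figure D3:**
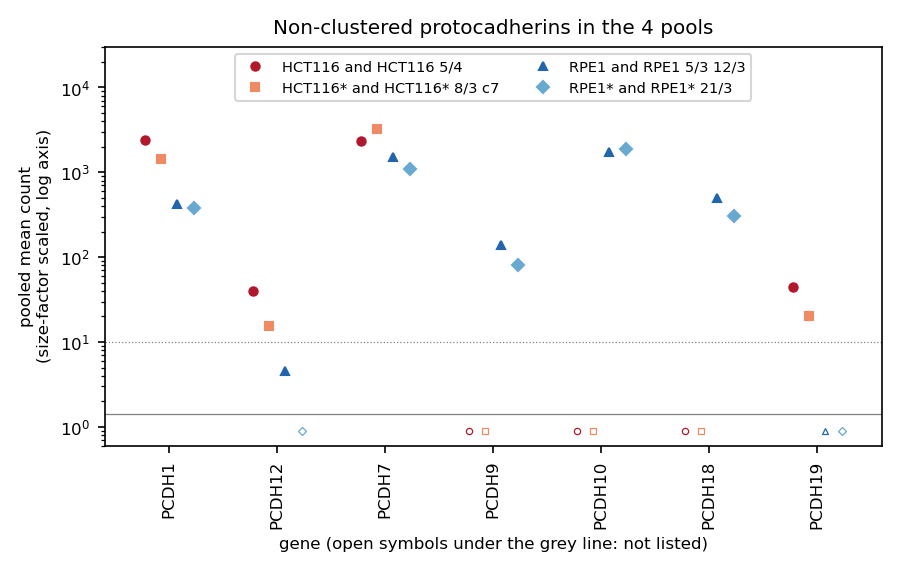
Pooled mean of the normalised read count (log axis) of 7 non-clustered members, 1 point per table, with open symbols below the grey line where a table does not list the gene. PCDH1 and PCDH7 are listed in all 4 tables, PCDH9, PCDH10 and PCDH18 in the RPE1 pools alone, and PCDH19 in the HCT116 pools alone.

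The HCT116 pools were then set against the RPE1 pools. For genes listed in all 4 tables with an average mean of at least 10, all 4 pools were put on 1 scale. A gene was counted where both pools of a background stood at least 2-fold above both pools of the other. Of 13 clustered genes compared, 12 were above in the RPE1 pools and 1 in the HCT116 pools, beside 12.1% and 11.4% of all 12764 genes. PCDHGA11, PCDHGB1, PCDHGA6, PCDHB11 and PCDHB15 were below 10 in both HCT116 pools and passed the filter through the RPE1 pools, so the counts describe these genes and not the clusters as a whole. The median log2 ratio of HCT116 over RPE1 was -4.49 for the clustered genes and -0.04 for 531 other chromosome 5 genes. PCDHGA11 stood furthest apart, with at least 268-fold between the nearest RPE1 and HCT116 pools. PCDHGA10 was the clustered gene above in the HCT116 pools, by at least 7.69-fold between the nearest pools. PCDH1 was above in the HCT116 pools by at least 2.77-fold, and PCDH7 by 1.43-fold, which is under the 2-fold used.

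Genes that the tables of a background do not list were counted on their own. Why a row is missing is not given in the sources used here, and PCDHGC3 shows that a gene can be at 550 in a table and not listed in the other of the same background, so a missing row is not read as a low level. Of 34 clustered genes at 10 or more in both RPE1 pools, 14 were listed in neither HCT116 pool, beside 4.06% of all 12923 such genes. They were 2 alpha, 5 beta and 7 gamma genes, among them PCDHGB5, given above. In the other direction, 1 of 6 clustered genes (PCDHAC1) at 10 or more in both HCT116 pools was listed in neither RPE1 pool, beside 6.01% of all 13570 such genes.

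**Figure D4:**
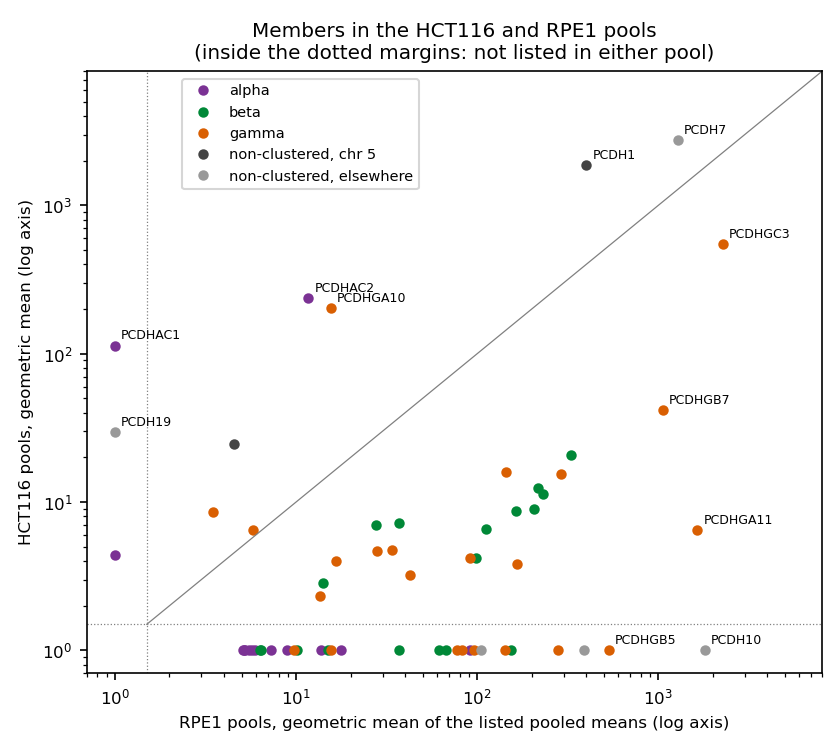
Geometric mean of the listed pooled means in the HCT116 pools against that in the RPE1 pools (both log axes, means as deposited), 1 point per member, with the diagonal of equal level and dotted margins for genes listed in neither pool of a background. Most alpha, beta and gamma points lie below the diagonal or in the lower margin, with PCDHGA10 and PCDHAC2 far above it and PCDHGA12 and PCDHGB8P above it at means under 10. PCDHAC1 and PCDHA10 lie in the left margin because neither RPE1 pool lists them, so nothing is read from their place against the diagonal.

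The pools carried markers of their labels only in part. Of 12 markers of colorectal epithelium, both HCT116 pools listed 10, EPCAM at 4192 and 5683 but KRT20 only at 40.7 and 51.0, while the RPE1 pools listed 5 and 4. KRT8 and KRT18 were high in the RPE1 pools too, at 19618 and 16721 and at 12481 and 13422. In the HCT116 pools KRT8 was at 63210 and 59668 and KRT18 at 28098 and 20665. Of the 4 markers compared over all 4 tables, 3 stood above in the HCT116 pools by the 2-fold rule, and KRT18 did not. Of 8 mesenchymal markers both RPE1 pools listed 8, VIM at 175391 and 110087 but COL1A2 only at 4.39 and 8.78. The HCT116 pools listed 6 and 5 of these 8. Of 9 markers of retinal pigment epithelium, MITF was at 1439 and 1124 in the RPE1 pools, but RPE65 was at 10.4 and 4.58 there and at 287 and 194 in the HCT116 pools, and TYR, TYRP1 and TTR were listed in no table. Of 8 neuronal markers, STMN2 and ELAVL4 were listed in no table, and RBFOX3 in the HCT116 pools alone at 8.02 and 17.0. TUBB3 was at 3314 to 5591, MAP2 at 344 to 891 and SYP at 13.2 to 40.0 over the 4 tables, and SNAP25 was at 141 and 76.7 in the RPE1 pools. VIM was at 481 in the HCT116 pool and 106 in the HCT116* pool, a log2 ratio of 2.24. Of 5 mesenchymal markers compared between the HCT116 pools, VIM and ZEB1 (1.81) were past 2-fold higher and TWIST1 (-1.98) was lower, with a median of 0.91. Their part in the ratios of the members was not tested.

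Genes around the protocadherins were taken as 4 lists. Of 22 names for chromatin and promoter choice, 21 were listed in every table, and 0 of the 21 was past 2-fold in either contrast, with medians of 0.06 and 0.07. CTCF, which binds the promoters and the enhancer, was at 2575, 2397, 1652 and 1173 in the HCT116, HCT116*, RPE1 and RPE1* pools. SMCHD1, a silencer of clustered protocadherins, was at 3299, 2451, 1834 and 1511. DNMT3B, a de novo DNA methyltransferase, was the 1 gene of this list that stood above in the HCT116 pools by the 2-fold rule, with 381 and 669 against 69.8 and 76.1.

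The WAVE complex, which binds the tails of several protocadherins and drives actin branching, had 9 of 9 genes listed in every table. WASF3 was past 2-fold in the HCT116 contrast (284 against 101), and CYFIP2, itself on chromosome 5, stood above in the HCT116 pools with 2634 and 3306 against 1035 and 957. Of 10 kinases and signalling partners 0 was past 2-fold in either contrast. FYN and PRKCA stood above in the RPE1 pools, PRKCA with 4378 and 3216 against 814 and 852, and RET was listed in the HCT116 pools alone at 338 and 323. All 7 genes of ADAM10 and gamma-secretase, the proteases that cut protocadherins at the membrane, were listed in every table and 0 was past 2-fold in either contrast. Of these, NCSTN stood above in the RPE1 pools with 4062 and 3436 against 1511 and 1998.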

How the data were processed

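Total RNA of 24 libraries (3 for each of 8 lines) was sequenced by the study as single reads. Per the labels and the methods, the authors trimmed reads with cutadapt, aligned them to hg19 with TopHat2 2.0.10, counted them per gene over exons with featureCounts 1.4.3 and contrasted aneuploid with parental libraries in DESeq2 (versions of cutadapt and DESeq2 are not given in the sources used here). The 4 deposited tables hold a signal per gene, namely the authors' mean of counts divided by size factors over the 6 libraries of a comparison. They also hold the authors' own comparison (log2 fold change, its standard error, the statistic, p-value and adjusted p-value), which was not used, so no change between an aneuploid line and its parental line is given here. Depth per library is unknown from these means, so no interval is given.

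Means were compared as ratios of pools (numpy 2.4.6, pandas 2.3.3), for genes listed in both tables with an average mean of at least 10, with no pseudocount and with the median log2 ratio of all genes set to 0. For 4 tables, each was centred on the median deviation from the gene's average. Past 2-fold is a size rule and no test. The ratios were tested on simulated tables with known changes. Positions, exons and overlaps came from GENCODE v44 on GRCh37 for 94.4% of genes and all members, 1480 genes by an older symbol, and promoters from RefSeq (GRCh38.p14). Every member is accounted for. Members with a mean of at least 10 in a table are named where a result turns on them. The members, gene lists and rules were chosen with earlier results of these data known. Alternatives were other scalings, filters, pseudocounts and folds, genes with no overlapping exons, and other exon lengths. Added after seeing the data were each cluster alone, genes that 1 background does not list, and unshared exon bases.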

Additional observations from a re-analysis of the deposited data

How the results depend on the processing

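No paired analysis was possible because the tables hold means over 6 libraries, and for the same reason no library could be left out. Other scalings left the counts of clustered genes past 2-fold as they were; scaling the tables to the same sum moved the median of all genes in HCT116 over RPE1 by 0.36 on the log2 scale, and that of the clustered genes to -4.13. Of 462 alternative values, 399 kept their sign and stayed within 1.5-fold, 59 moved further and 4 changed sign; of the 76 values of single members past 2-fold, 4 moved and 0 changed sign. For HCT116 over HCT116*, the clustered genes higher went from 4 to 1 of 4 genes at a mean of at least 50, to 7 at 1.5-fold, and to 2 of 3 genes with no overlapping exons, whose median was 2.15. The medians by cluster were 1.98 for beta and 0.19 for gamma genes, the latter 2.12 over 2 genes at a mean of at least 50. The non-clustered median off chromosome 5 was -0.44 at a mean of at least 50, where PCDH7 alone is left. All genes higher went from 520 to 1271 at 1.5-fold and 239 at 3-fold, and lower from 268 to 849, 62, and 148 at a mean of at least 50. For RPE1 over RPE1*, the clustered median turned to -0.0017 over 12 genes with no overlapping exons, and was -1.94 for alpha and -0.037 for beta genes alone; the alpha median was -1.28 with no filter and at a mean of at least 50, where 1 gene is left. Clustered genes higher went from 3 to 8 at 1.5-fold, 1 at 3-fold and 1 with no overlapping exons. Clustered genes lower went from 5 to 2 at a mean of at least 50, 3 at 3-fold and 1 with no overlapping exons. All genes higher went from 255 to 601 at 1.5-fold, 113 at 3-fold and 123 at a mean of at least 50, and lower from 273 to 812, 102 and 139. In HCT116 against RPE1, with no overlapping exons 4 of 4 clustered genes were above in the RPE1 pools and 0 in the HCT116 pools. Counting genes that the other background does not list gave 26 and 2 of 28. The added genes count as above by definition and a missing row is no low level, so nothing is read from this count. Filters and folds change how many genes are counted, and the cause was not tested for the difference between genes with and without overlapping exons.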
